A study of Arabidopsis thaliana with 12 samples.

Results

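Cell wall expansion and polysaccharide genes of Arabidopsis leaves were compared between wild type and 3 genotypes with impaired starch breakdown. The members were chosen by name: probe sets paired with 1 gene whose symbol on the platform, after a leading AT was dropped, began with EXP, EXL, XTH, TBL, CSL, CESA, FLA, IRX, GAUT, PME and a digit, or AGP. They came to 61 of the 22746 probe sets on the array that are not controls. Of these, 18 were expansins or expansin-like genes, 9 were XTH genes, 22 were TBL genes, 10 were CSL or IRX genes, and the pectin genes were GAUT15 and PME61. No probe set paired with 1 gene carried a CESA, FLA or AGP symbol, so cellulose synthase subunits and arabinogalactan proteins were not analysed here. A further 2 probe sets with such symbols were paired with several genes and were left out, and 1 of the 61, TBL32, has the suffix for probes that match several transcripts.

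A growing plant cell is held by a wall of cellulose microfibrils tied into a matrix of hemicelluloses and pectins. Expansins loosen this network without cutting it, and XTH enzymes cut and rejoin xyloglucan, the main hemicellulose of the primary wall. CSLC proteins make the glucan backbone of xyloglucan and CSLA proteins make mannans. TBL proteins transfer acetyl groups to wall polysaccharides, GAUT proteins are a family of galacturonosyltransferases of pectin synthesis, and pectin methylesterases (PME) remove methyl groups from pectin. In Arabidopsis leaves starch is broken down at night and feeds growth until dawn, and SEX1, SEX4 and PTPKIS2, also known as LSF1, take part in that breakdown.

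Leaf RNA was hybridised to Affymetrix ATH1 arrays, with 3 arrays for each of wild type Col-0, sex1-3 (an induced mutation in the Col-0 background), sex4-3 (Salk_102567) and ptpkis2 (Salk_053285), each mutant being a single line. All plants had a 12 h photoperiod at 100 µmol m-2 s-1, at least 75% humidity and 20 °C, and at growth stage 3.70 the genotypes gave 3 leaves from 8 plants each, cut in darkness 0.5 h before the lights came on. Nothing in the labels says that the 3 arrays were hybridised with RNA from different plants, so the p-values cover only the array-to-array spread seen here, which may be technical. In whole leaves, fewer cells of a type and less RNA per cell cannot be told apart.

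Wild type replicate 2 stood apart from the other 11 arrays. Its median signal was 62.2, against 24 to 29.7 on the others, and it correlated with them at 0.586 to 0.604 across probe sets, against 0.891 to 0.93 among the rest. It gave the highest of the 12 signals for 33 of the 61 members and the lowest for 7. The calls in each comparison are therefore given with all 12 arrays and without it. The leaf marker RCA, the activase of Rubisco, had signals of 5870 to 10735 on the other 11 arrays and was the only 1 of 8 leaf markers with a named probe set. The root hair expansins EXPA7 and EXPA18, the only 2 of 5 root markers that were named, lay between 1.49 and 20.3 on those arrays. On wild type replicate 2 RCA had a signal of 12698, EXPA7 of 147 and EXPA18 of 10.9, and whether that array holds another kind of sample was not tested. None of the 4 flower or 3 secondary wall markers had a named probe set.

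The summed signal of the 61 members was lowest in sex1-3. It was 3822, 4586 and 3224 on wild type replicates 1, 2 and 3, 2428, 2562 and 2241 in sex1-3, 4140, 3595 and 3303 in sex4-3, and 3851, 3845 and 3881 in ptpkis2. All 3 sex1-3 arrays lay below the other 9, while the other genotypes overlapped. As a share of all signal the members took 0.063 to 0.073% in sex1-3 and 0.093 to 0.115% on the other 9 arrays. The median signal of the 61 was 15.6, 14.9 and 17.7 in sex1-3, 20.3, 54.2 and 17.0 in wild type, 20.0, 18.5 and 24.4 in sex4-3, and 24.3, 26.6 and 24.5 in ptpkis2, so by the median sex1-3 overlapped wild type replicate 3. Of the difference of 1113 between the mean sums of wild type replicates 1 and 3 and of sex1-3, 70.7% lay in 4 probe sets, EXPA8, TBL45, TBL25 and CSLC04. No test was made on these sums and medians.

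**Figure D1:**
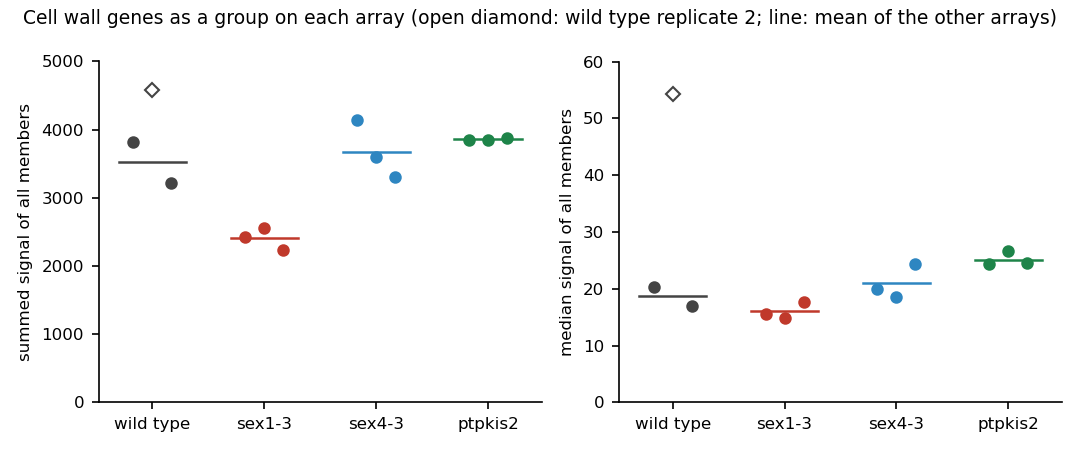
Summed signal intensity (left) and median signal intensity (right) of the 61 cell wall members on each of 12 arrays, by genotype, with wild type replicate 2 as an open diamond and the mean of the other arrays of a genotype as a line. The sex1-3 sums sit between 2241 and 2562 with every other array at 3224 or above, and wild type replicate 2 has a median of 54.2.

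The filter on low signal, which left out the lowest 40% of probe sets, kept 34 of the 61 members, and the same 34 with and without wild type replicate 2. The 27 others had signals of 0.322 to 40.6 on the 11 arrays and up to 166 on wild type replicate 2. The nearest members to the filter were TBL15 just above it, with a geometric mean of 16.7 over 12 arrays against a filter of 14.0, and CSLA01 just below it at 13.0. In the fit without wild type replicate 2, TBL15 stayed the nearest above and IRX15-L, a gene of xylan deposition, was the nearest below at 11.7. TBL15 (AT2G37720) gave 17.8, 98.1 and 13.4 in wild type, 11.4, 11.2 and 6.25 in sex1-3, 15.8, 18.0 and 18.6 in sex4-3, and 20.9, 26.3 and 8.42 in ptpkis2, and IRX15-L (AT5G67210) gave 6.68, 41.6 and 7.22, 13.7, 2.85 and 10.2, 14.0, 10.3 and 25.9, and 18.4, 31.5 and 13.6 in the same order. Wild type replicate 2 was the highest array of both. With it left aside, the sex1-3 arrays of TBL15 lay below those of wild type and sex4-3, and the sex4-3 and ptpkis2 arrays of IRX15-L lay above those of wild type, but TBL15 passed in no comparison in either fit. Below, a gene rose or fell where limma gave an adjusted p under 0.05 over all 13647 tested probe sets, and differences are log2 ± standard error from 3 arrays per genotype, or 2 for wild type where replicate 2 was left out. Unless another setting is named, a statement that a gene passed without wild type replicate 2 compares these 2 fits. All 19 gene and comparison pairs that passed without that array but not with it also passed with array weights. The weights gave that array 0.038, which nearly leaves it out, so this is not an independent check. Where only the 2 genotypes compared were fitted, 13 of the 19 passed. All of the 13 were comparisons between mutants, whose fits do not hold that array, and no pair against wild type passed there. Each of the 19 passed in 3 to 10 of 27 alternative settings, the fit without that array among them.

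EXPA8 (AT2G40610) is an alpha-expansin, the class that loosens walls in acid conditions. Its signal was 668, 359 and 481 in wild type, 312, 336 and 250 in sex1-3, 822, 624 and 479 in sex4-3, and 390, 278 and 359 in ptpkis2. The sex1-3 and ptpkis2 arrays lay below every sex4-3 array, and wild type replicate 2 lay among them while the other wild type arrays did not. Against wild type the sex1-3 difference was −0.71 ± 0.26 with 12 arrays, which did not pass, and −0.93 ± 0.23 without wild type replicate 2, which did. EXPA8 without that array was also higher in sex4-3 than in sex1-3, by 1.08 ± 0.21, and 1.85-fold lower in ptpkis2 than in sex4-3, and it was the only member with a lower call in ptpkis2 in these 2 fits. Neither of these passed with 12 arrays, and without that array the second had an adjusted p of 0.047.

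The beta-expansins EXPB1 and EXPB3 belong to the branch of the family that includes grass pollen allergens. EXPB1 (AT2G20750) gave 18.9, 35.1 and 22.6 in wild type, 17.2, 20.3 and 17.0 in sex1-3, 29.6, 18.5 and 24.3 in sex4-3, and 60.8, 40.8 and 34.0 in ptpkis2. With wild type replicate 2 left aside, the ptpkis2 arrays lay above all others, and the other genotypes overlapped. EXPB1 was 1.27 ± 0.36 higher in ptpkis2 than in sex1-3 with 12 arrays, at an adjusted p of 0.048, which ranged from 0.0032 to 0.21 over 27 alternative settings and passed in 12 of them. Leaving out any 1 array other than wild type replicates 1 and 2 lost that call, at adjusted p of 0.054 to 0.21. EXPB3 (AT4G28250) gave 24.2, 50 and 26.1 in wild type, 12.6, 7.01 and 17.0 in sex1-3, 18.2, 16.0 and 18.1 in sex4-3, and 29.6, 19.9 and 25.8 in ptpkis2. Its ptpkis2 arrays lay above its sex1-3 arrays, a difference of 1.11 ± 0.37 that passed without wild type replicate 2 and not with it. The adjusted p without that array was 0.037, and the difference passed in 3 of 27 alternatives.

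The expansin-like genes EXLA1, EXLA2 and EXLB1 resemble expansins in sequence, but their action on walls is less well known. EXLB1 (AT4G17030) gave 51.2, 131 and 84.2 in wild type, 43.0, 48.1 and 17.7 in sex1-3, 84.8, 55.3 and 105 in sex4-3, and 103, 112 and 81.2 in ptpkis2. Every sex1-3 array lay below every other array, and the other 3 genotypes overlapped. EXLB1 was 1.56 ± 0.43 higher in ptpkis2 than in sex1-3, with an adjusted p of 0.044 that ranged from 0.00082 to 0.16 over the alternatives. Leaving out any 1 array other than wild type replicates 1 and 2 lost that call as well. In sex4-3 EXLB1 was 2.38-fold higher than in sex1-3, which passed without wild type replicate 2 and not with it. Its difference from wild type in sex1-3, −1.32 with 12 arrays and −0.98 without wild type replicate 2, did not pass in either fit.

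EXLA1 (AT3G45970) gave 29.9, 5.09 and 50.3 in wild type, 55.8, 27.8 and 40.3 in sex1-3, 45.3, 45.5 and 63.3 in sex4-3, and 61.5, 88.7 and 114 in ptpkis2. The ptpkis2 arrays lay above the sex1-3 arrays, which overlapped wild type and sex4-3. That difference was 1.10 ± 0.30 without wild type replicate 2 and passed, and it did not pass with 12 arrays. EXPA4 (AT2G39700), an alpha-expansin, passed in the same comparison without that array, by 1.06 ± 0.38. Its adjusted p there rounds to 0.05, and it passed in 4 of 27 alternatives. Its signals were 30.6, 48.2 and 77.1 in wild type, 20.7, 14.9 and 39.4 in sex1-3, 62.9, 41.6 and 36.6 in sex4-3, and 46.0, 58.0 and 41.7 in ptpkis2. The ptpkis2 arrays were above the sex1-3 arrays, but the highest sex1-3 array overlapped sex4-3 and wild type.

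EXLA2 (AT4G38400) is added outside the rule for named genes, after its values were seen, because it did not pass the filter. Its signals were 16.0, 27.3 and 14.0 in wild type, 1.48, 1.13 and 1.57 in sex1-3, 10.2, 26.5 and 30.2 in sex4-3, and 34.2, 26.6 and 36.9 in ptpkis2. No sex1-3 array came near the others, and the 20th percentile of all signals was 4.19, so the sex1-3 signals lay among the lowest on the array. In a fit of all probe sets with no filter the sex1-3 difference from wild type was −3.73 ± 0.61. It was −2.13 where signals below the 20th percentile were raised to it, a fit that kept the filter, which EXLA2 then passed. The size of the difference thus rests on how low signals are treated. EXLA2 passed in both of those fits.

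Of the tested wall loosening genes, EXPA16 and EXLA1 lay higher in sex1-3 than in wild type, without passing in either fit. The EXLA1 difference was 1.01 with 12 arrays and 0.03 without wild type replicate 2. EXPA16 (AT3G55500) gave 34.0, 65.1 and 29.5 in wild type, 63.4, 88.9 and 70.4 in sex1-3, 82.9, 26.2 and 31.6 in sex4-3, and 53.7, 42.4 and 30.0 in ptpkis2. The sex1-3 arrays overlapped wild type replicate 2 and 1 sex4-3 array. Its difference from wild type was 0.87 with 12 arrays and 1.21 ± 0.40 without wild type replicate 2, and it passed as higher where those 11 arrays were also centred on their medians. EXPA16 is likewise named after its values were seen.

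Of the 9 XTH genes, 3 passed the filter. XTH32 (AT2G36870) gave 102, 218 and 84.8 in wild type, 39.2, 31.3 and 33.7 in sex1-3, 120, 110 and 83.1 in sex4-3, and 183, 141 and 128 in ptpkis2. The sex1-3 arrays lay below every other array, and those of ptpkis2 lay above every other one but wild type replicate 2. XTH32 fell by 1.84 ± 0.33 in sex1-3 against wild type (3.58-fold, adjusted p = 0.012), and by 1.43 ± 0.22 without wild type replicate 2, and the adjusted p ranged from 0.00015 to 0.25 over 27 alternatives. Leaving out sex1-3 replicate 2 or 3 lost the call, at adjusted p of 0.054 and 0.056. XTH32 was 4.30-fold higher in ptpkis2 than in sex1-3 (adjusted p = 0.002) and passed under all 27 alternatives, and it was 2.98-fold higher in sex4-3 than in sex1-3 (adjusted p = 0.027). The last call was lost without any 1 of the 3 sex1-3 arrays, sex4-3 replicates 1 or 2, or ptpkis2 replicates 2 or 3.

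XTH16 (AT3G23730) gave 39.8, 99.3 and 15.1 in wild type, 15.4, 8.74 and 9.54 in sex1-3, 17.5, 37.0 and 29.6 in sex4-3, and 24.3, 38.8 and 32.5 in ptpkis2. Wild type spread widely and reached down to the sex1-3 arrays, which lay below sex4-3 and ptpkis2. XTH16 was 1.53 ± 0.42 higher in ptpkis2 than in sex1-3 without wild type replicate 2, and passed in no other comparison in either fit. XTH33, the only other XTH gene tested, passed in none of the 6 comparisons in either fit.

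CSLC04 and CSLC5 encode glucan synthases of the xyloglucan backbone. CSLC5 (AT4G31590) gave 85.8, 57.5 and 52.6 in wild type, 30.2, 26.1 and 31.1 in sex1-3, 63.0, 66.0 and 58.1 in sex4-3, and 102, 120 and 115 in ptpkis2. Here wild type replicate 2 lay among its replicates, the sex1-3 arrays were below every other array, and the ptpkis2 arrays were above every other array. CSLC5 fell by 1.13 ± 0.23 in sex1-3 against wild type (2.20-fold, adjusted p = 0.025), and by 1.21 ± 0.22 without wild type replicate 2, with adjusted p of 0.00034 to 0.45 over the alternatives. The call was lost without wild type replicate 1, any 1 of the 3 sex1-3 arrays, sex4-3 replicate 2 or ptpkis2 replicates 2 or 3, at adjusted p of 0.051 to 0.096.

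CSLC5 was 3.86-fold higher in ptpkis2 than in sex1-3 (1.95 ± 0.23, adjusted p = 0.00035) and passed there under all 27 alternatives. It was 2.14-fold higher in sex4-3 than in sex1-3 (adjusted p = 0.031), a call lost without any 1 of the 9 mutant arrays, and 1.80-fold higher in ptpkis2 than in sex4-3, which passed without wild type replicate 2 and not with it. That last call had an adjusted p of 0.046. Against wild type the ptpkis2 difference did not pass, although the groups did not overlap.

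CSLC04 (AT3G28180) gave 267, 133 and 237 in wild type, 155, 89.5 and 140 in sex1-3, 233, 235 and 234 in sex4-3, and 312, 308 and 290 in ptpkis2. The arrays of sex1-3 lay below all others except wild type replicate 2, which fell among them. Its sex1-3 difference from wild type was −0.70 ± 0.27 with 12 arrays and did not pass, whereas it was −1.01 ± 0.20 and passed without wild type replicate 2. CSLC04 was 2.43-fold higher in ptpkis2 than in sex1-3 (adjusted p = 0.011), which 26 of 27 alternatives kept past the threshold, and median centring of the 12 arrays did not.

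CSLA03 (AT1G23480) belongs to the mannan synthase family. It gave 137, 54.2 and 88.8 in wild type, 62.4, 72.0 and 64.9 in sex1-3, 89.6, 138 and 77.2 in sex4-3, and 94.8, 98.2 and 122 in ptpkis2. Wild type replicate 2 lay below the sex1-3 arrays, which lay below the rest. It passed in ptpkis2 minus sex1-3 without that array, by 0.66 ± 0.22 (adjusted p = 0.04), and not with it. Of 27 alternatives 4 kept it past the threshold. CSLA01 (AT4G16590), of the same family and just below the filter, gave 10.2, 120 and 6.70 in wild type, 11.5, 16.7 and 2.37 in sex1-3, 8.21, 2.15 and 16.5 in sex4-3, and 20.8, 25.6 and 40.6 in ptpkis2. Its ptpkis2 arrays lay above every array but wild type replicate 2.

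**Figure D2:**
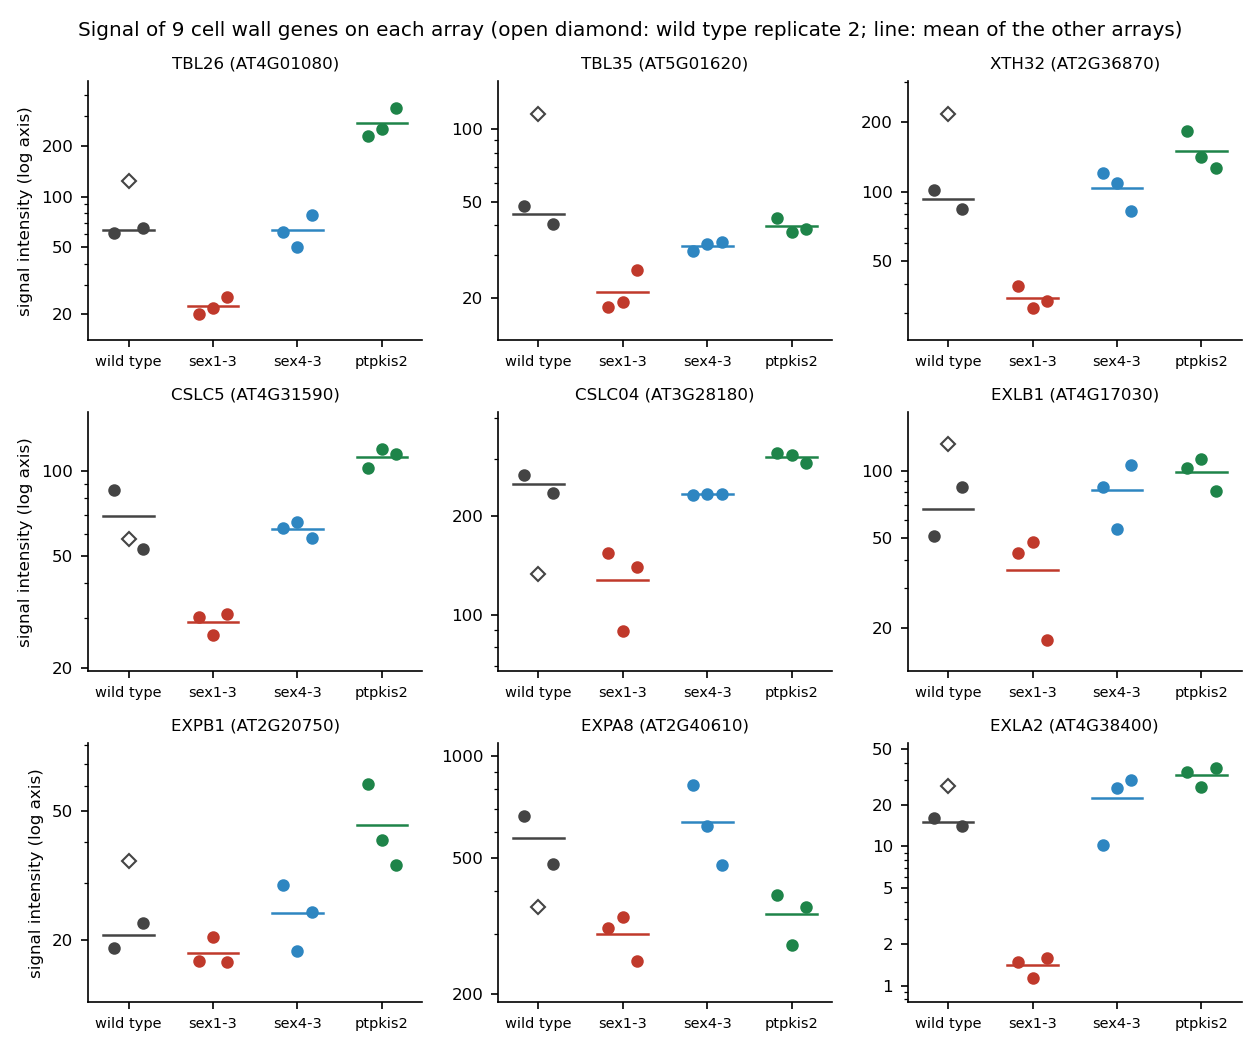
Signal intensity of 9 members on each array, on log axes, by genotype, with wild type replicate 2 as an open diamond and the mean of the other arrays of a genotype as a line. TBL26 runs from 20.2 to 25.4 in sex1-3 and from 231 to 336 in ptpkis2, while EXPA8 in ptpkis2, at 278 to 390, lies below its sex4-3 arrays.

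TBL26 (AT4G01080), an acetyltransferase of the subgroup known for mannan acetylation, had the largest fitted difference between 2 genotypes of the members that passed the filter, in both fits. Its signal was 61, 124 and 65.2 in wild type, 20.2, 21.8 and 25.4 in sex1-3, 61.6, 50.5 and 78.3 in sex4-3, and 231, 252 and 336 in ptpkis2. The sex1-3 arrays were below every other array and the ptpkis2 arrays above every other array, wild type replicate 2 included, while sex4-3 overlapped wild type. TBL26 fell by 1.82 ± 0.30 in sex1-3 against wild type (3.54-fold, adjusted p = 0.0079), and by 1.50 ± 0.22 (2.82-fold) without wild type replicate 2. The call held in 26 of 27 alternatives, with adjusted p of 0.00053 to 0.25, and a fit of only these 2 genotypes lost it.

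TBL26 rose by 1.77 ± 0.30 in ptpkis2 against wild type (adjusted p = 0.042) and by 2.10 ± 0.22 (4.28-fold, adjusted p = 0.00015) without wild type replicate 2. With all 12 arrays that call was narrow, and leaving out any 1 of the 11 other arrays gave adjusted p of 0.069 to 0.24, while over all alternatives the adjusted p ran from 1.2e-05 to 0.71. In ptpkis2 TBL26 was 12.1-fold higher than in sex1-3 (3.59 ± 0.30, adjusted p = 4.5e-05, past the threshold in all 27 alternatives) and 4.32-fold higher than in sex4-3 (adjusted p = 0.027). In sex4-3 it was 2.80-fold higher than in sex1-3 (adjusted p = 0.025), and its difference from wild type was −0.01 without wild type replicate 2. The call against sex4-3 was lost without any 1 of the 9 mutant arrays, at adjusted p of 0.051 to 0.22, and the call between sex4-3 and sex1-3 without any 1 of their 6 arrays or ptpkis2 replicate 2.

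TBL35 (AT5G01620), of the subgroup known for xylan acetylation, gave 48.1, 115 and 40.6 in wild type, 18.2, 19.2 and 25.9 in sex1-3, 31.3, 33.3 and 33.9 in sex4-3, and 42.8, 37.5 and 38.5 in ptpkis2. All sex1-3 arrays lay below all others, and sex4-3 lay below wild type and ptpkis2. TBL35 fell by 1.55 ± 0.37 in sex1-3 against wild type (2.92-fold, adjusted p = 0.048) and by 1.08 ± 0.25 (2.12-fold) without wild type replicate 2. It passed in 9 of 27 alternatives, and leaving out any 1 of the arrays other than wild type replicates 2 and 3 lost the call, at adjusted p of 0.061 to 0.15. TBL35 was also 1.90-fold higher in ptpkis2 than in sex1-3 without wild type replicate 2.

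TBL25 and TBL45 passed in no comparison with 12 arrays. TBL25 (AT1G01430), in the same subgroup as TBL26, gave 472, 192 and 415 in wild type, 269, 323 and 262 in sex1-3, 601, 419 and 388 in sex4-3, and 360, 432 and 390 in ptpkis2. Wild type replicate 2 was the lowest of all 12 arrays, and the sex1-3 arrays lay below the other 8. The sex1-3 difference from wild type was −0.24 with 12 arrays and −0.64 ± 0.19 without wild type replicate 2, where it passed (adjusted p = 0.045). It was 0.30 where the 12 arrays were centred on their medians, and it also turned positive without wild type replicate 1. Where wild type replicate 2 was left out, it stayed below 0 after quantile normalization or centring. TBL25 was also higher in ptpkis2 (1.39-fold, adjusted p = 0.046) and in sex4-3 (1.62-fold, adjusted p = 0.013) than in sex1-3 without wild type replicate 2.

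TBL45 (AT2G30010), whose substrate is less well known, gave 626, 267 and 408 in wild type, 321, 363 and 179 in sex1-3, 681, 597 and 415 in sex4-3, and 606, 513 and 505 in ptpkis2. The sex1-3 arrays lay below all others except wild type replicate 2. Without that array TBL45 was 1.96-fold higher in ptpkis2 than in sex1-3 and 2.01-fold higher in sex4-3 than in sex1-3, and its sex1-3 difference from wild type, −0.88, did not pass.

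Of the pectin genes, PME61 (AT3G59010), a pectin methylesterase, passed in 1 comparison. Its signals were 45.9, 97.3 and 36.3 in wild type, 22.6, 17.8 and 24.6 in sex1-3, 36.6, 26.8 and 30.6 in sex4-3, and 39.2, 37.6 and 62.8 in ptpkis2. The sex1-3 arrays lay below all others, and sex4-3 lay below ptpkis2. PME61 was 2.11-fold higher in ptpkis2 than in sex1-3 without wild type replicate 2, while its sex1-3 difference from wild type, −1.34 with 12 arrays and −0.93 without that array, passed in neither fit. GAUT15 (AT3G58790) gave 31.5, 123 and 36.4 in wild type, 30.1, 15.4 and 40.9 in sex1-3, 40.7, 39.6 and 29.0 in sex4-3, and 37.5, 35.9 and 35.7 in ptpkis2. Its groups overlapped and it passed in no comparison.

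Counted by comparison, the calls in sex1-3 against wild type were all lower. With 12 arrays they were CSLC5, TBL26, TBL35 and XTH32, 4 members, where 1.87% of all tested probe sets had a lower and 1.08% a higher call. Without wild type replicate 2 CSLC04, EXPA8 and TBL25 joined them, giving 7, where the shares were 5.64% lower and 3.23% higher. By role the 7 were 1 of 9 tested wall loosening genes, 1 of 3 XTH genes, 2 of 6 CSL genes, 3 of 14 TBL genes and 0 of 2 pectin genes. The median difference of the 34 tested members with 12 arrays was −0.68, against −0.02 for all tested probe sets. Of the 34, 28 lay below 0, a count that was 22 after quantile normalization of the 12 arrays and 19 after median centring. Without wild type replicate 2 the count was 28, and 26 after either scaling. The share of all tested probe sets below 0 was not counted. With the 12 arrays centred on their medians the median difference was 0.52 for all tested probe sets and −0.13 for the members. Centring moves all probe sets of an array by the same amount, so the gap of −0.65 (members minus all) could not change. After quantile normalization of the 12 arrays, where it could, the gap was −0.58. Without wild type replicate 2 it was −0.56, and −0.48 after quantile normalization. With no filter, 4 of the 61 members were called with 12 arrays, against 0.862% of all probe sets with a lower call, and 7 without wild type replicate 2, against 2.87%.

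**Figure D3:**
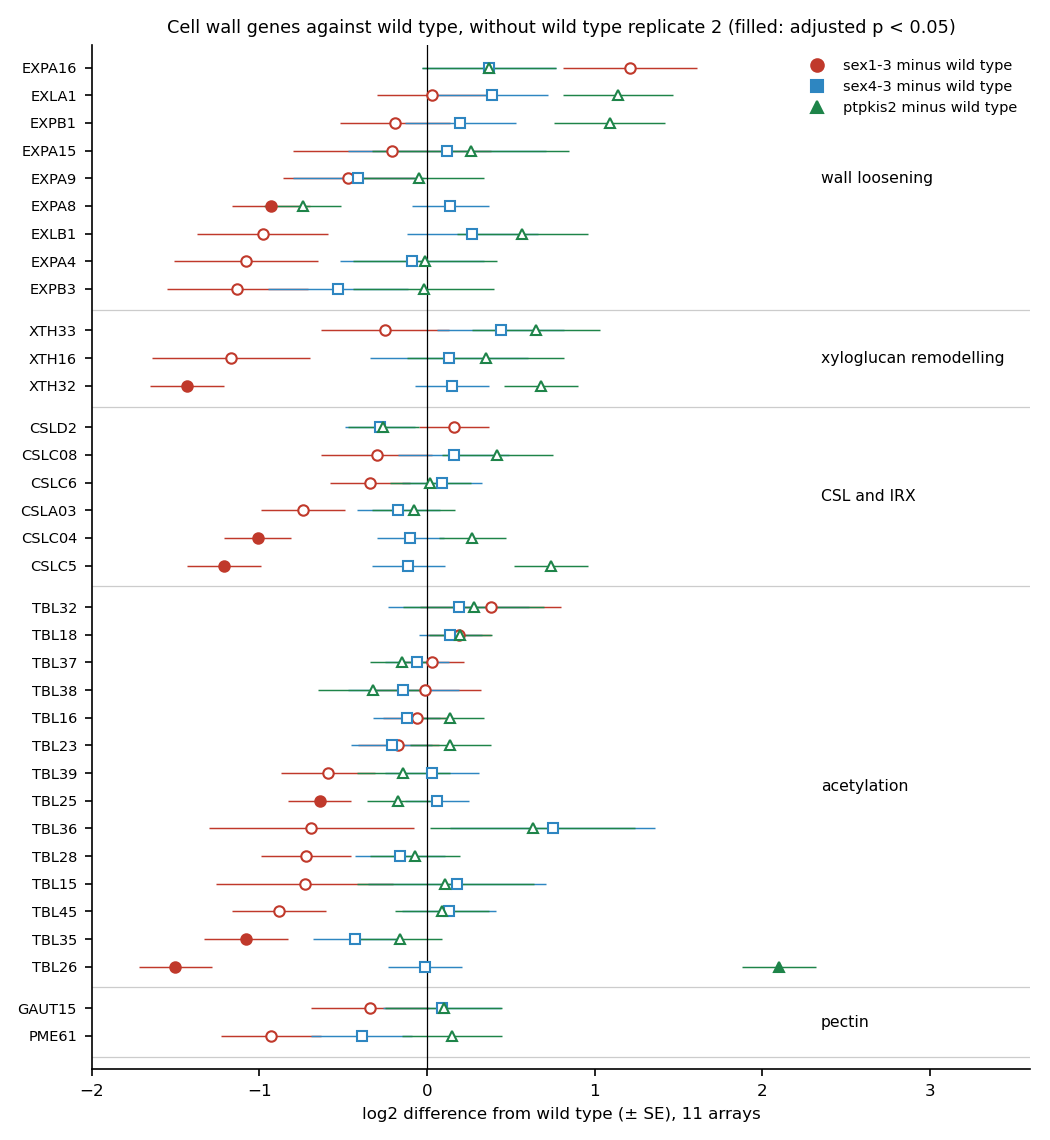
Log2 difference from wild type (± SE) of the 34 members that passed the filter, in a fit of 11 arrays without wild type replicate 2, by role, with filled symbols at an adjusted p under 0.05. TBL26 lies at −1.50 in sex1-3 and 2.10 in ptpkis2, and the 7 filled sex1-3 symbols all lie below 0.

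No member was called in sex4-3 against wild type in limma's fit, with or without wild type replicate 2, where 0.00733% of all tested probe sets were called. At an unadjusted p under 0.05 the count was 1 member with 12 arrays and 0 without that array. The share of all tested probe sets at that unadjusted threshold was not counted, so these counts have no reference. The median of the tested members was −0.06 with 12 arrays and 0.07 without wild type replicate 2, against 0.02 and −0.01 for all tested probe sets, and median centring of the 12 arrays turned it to 0.34 while moving the median of all probe sets to 0.43. A p that misses the threshold does not show that the genotypes were alike.

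In ptpkis2 against wild type TBL26 was the 1 member called, as higher, in both fits. The share of all tested probe sets with a higher call was 0.0733% with 12 arrays and 0.835% without wild type replicate 2. The median difference of the tested members was 0.09 with 12 arrays, against 0.05 for all tested probe sets. Without wild type replicate 2 it was 0.14, against 0.03. With no filter TBL26 was called without wild type replicate 2 and missed the threshold with it.

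The direct comparisons of mutants do not use the wild type arrays as a group, but they share the sex1-3, sex4-3 and ptpkis2 arrays with the comparisons above. In ptpkis2 minus sex1-3, 6 members were higher with 12 arrays (CSLC04, CSLC5, EXLB1, EXPB1, TBL26 and XTH32) and none lower, where 5.28% of all tested probe sets had a higher and 4.18% a lower call. Without wild type replicate 2, which there acts only on the filter and the shared estimate of spread, 15 were higher and none lower, where the shares of all tested probe sets were 16.8% higher and 12.3% lower. Where these 11 arrays were also centred on their medians, EXPA16 and CSLD2, whose family acts in tip growth, were lower in ptpkis2 than in sex1-3, and CSLD2 was also lower after quantile normalization. The 15 were 5 of 9 wall loosening genes, 2 of 3 XTH genes, 3 of 6 CSL genes, 4 of 14 TBL genes and 1 of 2 pectin genes. The median difference of the tested members was 0.68, against 0.08 for all tested probe sets.

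In sex4-3 minus sex1-3, CSLC5, TBL26 and XTH32 were higher with 12 arrays, 3 members, against 1.63% of all tested probe sets with a higher call. The fit without wild type replicate 2 gave 8, with CSLC04, EXLB1, EXPA8, TBL25 and TBL45 added, against 8.39%. In ptpkis2 minus sex4-3 TBL26 was higher with 12 arrays, against 0.0147% of all tested probe sets with a higher call. Without wild type replicate 2 TBL26 and CSLC5 were higher, against 0.528%, and EXPA8 was lower, against 1.13% with a lower call.

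**Figure D4:**
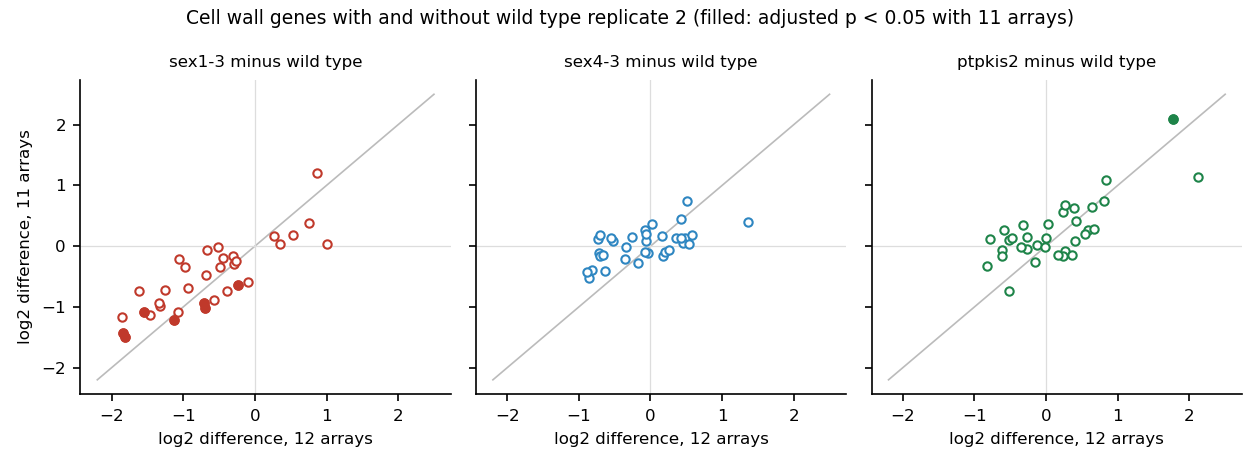
Log2 differences of the 34 tested members in the fit of all 12 arrays and in the fit without wild type replicate 2, for each mutant minus wild type, each point being 1 member, filled where the fit of 11 arrays called it, with a grey line of equal values. TBL26 in sex1-3 minus wild type lies at −1.82 with 12 arrays and −1.50 with 11.

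Counted without a test and without wild type replicate 2, 12 of the 61 members had all 3 sex1-3 arrays below all 8 other arrays, where 7.16% of all probe sets did. These were CSLA03, CSLC04, CSLC5, EXLA2, EXLB1, PME61, TBL25, TBL26, TBL35, TBL39, TBL45 and XTH32. With wild type replicate 2 counted, CSLA03, CSLC04, TBL25, TBL39 and TBL45 leave this list, as that array did not lie above all their sex1-3 arrays. No member had sex1-3 above the other 8, where 5.54% of all probe sets did. For ptpkis2, 7 members lay above the other 8 arrays (CSLA01, CSLC04, CSLC5, EXPB1, TBL26, TBL30 and XTH32), against 4.01% of all probe sets, and none lay below, against 3.45%. With wild type replicate 2 counted, CSLA01, EXPB1 and XTH32 no longer lay above all others. The shares of all probe sets with that array included were not counted.

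Other genes of wall synthesis and modification, a list chosen by symbol that includes the GH9 cellulases, had 23 named probe sets, of which 11 passed the filter. In sex1-3 against wild type 3 of the 11, the cellulase genes GH9B7, GH9B8 and GH9C2, were lower with 12 arrays, and 4 were lower without wild type replicate 2, beside 1.87% and 5.64% of all tested probe sets. The median difference of the 11 there was −0.56 with 12 arrays, with 3 above 0. Without wild type replicate 2 it was 0.13, with 6 above 0, so the list as a whole was not lower in both fits. In ptpkis2 minus sex1-3, 3 and 5 of the 11 were higher in the 2 fits, beside 5.28% and 16.8%.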

How the data were processed

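Per the submitters' processing notes, the values were made with MAS5 and GCOS, with versions and settings not given in the sources used here. Deposited were linear signal intensities, 1 for each probe set on each array, scaled by the authors so that the mean without the lowest and highest 2% was about equal on every array. These were taken to log2 as they stood, with no pseudocount. Of 22810 probe sets, 64 controls and the lowest 40% of the others by mean log2 signal were left out, and 13647 were fitted with limma 3.58.1 in R 4.3.3 (eBayes with a trend, 4 genotypes, 8 residual degrees of freedom, or 7 without wild type replicate 2). Tests were two-sided, with Benjamini-Hochberg adjustment over all tested probe sets and a threshold of 0.05. The fit was also run on simulated data, with changes placed only in probe sets above the median of mean signal, and its outcome is not given here. The number of arrays limits the precision.

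Genes were named from the platform annotation, and all 61 members had a locus in the RefSeq table (TAIR10.1), which was used for names alone. Coordinates and sequences are not given here. Named with values were all members called in any comparison by either fit, TBL26, the member with the highest mean signal of each role and the members nearest the filter. Signals of different probe sets were set against each other only for that choice and in sums. The members and lists were chosen with earlier results of these data known. Alternatives were quantile normalization, median centring, other filters, a floor or pseudocount at the 20th percentile, other moderation of the spread, array weights, fits of 2 genotypes, the replicate number as a block, and each array left out in turn. After seeing the data, scaling and the filter were also varied in the fit without wild type replicate 2.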

Additional observations from a re-analysis of the deposited data

Results flagged for a closer look

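The hybridisation spike-in probe sets, which are controls and in no comparison, stood out on 1 array. The median ratio of the 18 spike-in probe sets on wild type replicate 2 to the other arrays was 23.3, against 0.525 to 1.34 for each of the other 11 arrays. The part of this array's difference in the results on wall genes was not tested beyond the fits given with and without it.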

How the results depend on the processing

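The counts of members called in sex1-3 minus wild type (4), ptpkis2 minus wild type (1), ptpkis2 minus sex1-3 (6), sex4-3 minus sex1-3 (3) and ptpkis2 minus sex4-3 (1), in that order, became 7, 1, 15, 8 and 3 without wild type replicate 2. They became 8, 1, 16, 10 and 3 where low signals were also raised to the 20th percentile, and 13, 4, 19, 14 and 5 with array weights. Fits of only the 2 genotypes gave 0, 0, 17, 7 and 2. Quantile normalization gave 2 in sex1-3 minus wild type, and median centring gave 2 there, 3 in ptpkis2 minus sex1-3 and 0 in ptpkis2 minus sex4-3. In ptpkis2 minus wild type, 0 were called with no filter, with the lowest 20% left out and with eBayes without a trend. In the settings added after seeing the data, all without wild type replicate 2, ptpkis2 minus sex1-3 gave 13 after quantile normalization or centring and 12 with no filter, sex4-3 minus sex1-3 gave 8, 8 and 9, sex1-3 minus wild type gave 7 in each, and ptpkis2 minus sex4-3 gave 2 with centring. Leaving out 1 array in turn gave 1 to 7, 0 to 1, 4 to 15, 0 to 8 and 0 to 3. In sex4-3 minus wild type no member was called in any alternative. Of 15 gene and comparison pairs called with 12 arrays none changed sign over 27 alternatives, and 3 stayed past the threshold in all of them. Of 19 further pairs called without wild type replicate 2, 1 changed sign: TBL25 in sex1-3 minus wild type was −0.64 without wild type replicate 2, 0.30 with median centring and 0.01 without wild type replicate 1. Where a setting only removes arrays it also lowers the degrees of freedom, and otherwise the cause was not tested. Shares of all tested probe sets called are not given for most of these settings, nor for the block fit below. Leaving out wild type replicate 2 moved the share higher in ptpkis2 minus sex1-3 from 5.28% to 16.8%. A change in these counts therefore need not be particular to wall genes.

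Replicate numbers did not pair the arrays: the deviations of same-numbered arrays correlated at −0.069 to 0.114, over 0.1 in 2 of 18 pairs. With the replicate number as a block the counts were 2, 0, 4, 3 and 0.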
